A study of Equus caballus with 32 samples.

Results

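Ribosomal proteins are the protein part of the cytosolic ribosome, the particle that translates mRNA. They are built in near equal numbers into a small subunit, which decodes the mRNA, and a large subunit, which joins the amino acids, with a flexible stalk on the large subunit that recruits the translation factors. Their mRNAs are among the most abundant of blood cells and share a tract of pyrimidines at their start, through which the kinase complex mTORC1 controls their translation. In whole blood they come from leukocytes of all kinds and, in smaller part, from platelets.

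The 64 genes described here were found by name. Their probes carry, in the gene name column of the array files, a name that starts with RPL or RPS followed by a number, or RPLP0, RPLP1, RPLP2 or RPSA, and kinases of RPS6 were left out. They hold 233 of the 43987 probes of the array that are not controls, and 64 of 14286 gene symbols. There were 29 genes of the large subunit, 27 of the small subunit, 3 of the stalk and 5 paralogs, which are close relatives of a ribosomal protein gene (RPL3L, RPL7L1, RPL10L, RPL22L1 and RPL26L1). Each gene was represented by its brightest probe over all arrays, and all 64 of these probes were tested. The rule used names and brightness and no difference between groups, but the list was chosen with earlier results of these data known.

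The samples were venous blood of 32 Welsh Pony mares, collected 30 days after weaning, 16 labelled brutal and 16 labelled progressive. The labels give the same breed, sex, tissue and time for both groups, and they give neither the ages of the mares nor how the weaning was done. Each mare gave 1 single-colour Agilent array, and each of 4 slides held 4 mares of each group. Mares have their own labels, and nothing in the labels pairs them across the groups.

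A level is the log2 signal of a probe relative to the 75th percentile of its array, and a difference is the progressive minus the brutal mean on that scale. No level of one probe is set against that of another. The 75th percentile ran from 339 to 646 intensity units over the arrays, and between 53.0 and 66.0% of its spots passed the software's background test. Array progressive 16 held 851 of the 2483 spots that the extraction software marked as outliers. No spot was saturated, no value of the 64 genes was missing, and 62 of the 64 stood above background on all 32 arrays. Of the marker genes fixed for blood, all 11 of T cells, all 9 of B cells, 8 of 9 of NK cells, 10 of 11 of neutrophils and 8 of 9 of monocytes were measured, against 5 of 12 of red cell precursors and 5 of 10 of platelets. In bulk blood fewer cells of a type and less RNA per cell cannot be told apart.

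Sequences of 9 probes are shown, so that it is clear which bases some of the probes named in this report hold. All are given 5′ to 3′ as the array files hold them, with positions on EquCab1, the build named by the file headers. The first pair shows how a gene of the large subunit and its paralog are told apart. RPL10 lies near the site where peptide bonds are formed, and RPL10L is an intronless relative known from testis. The probes come from the same stretch of the coding sequence and differ at 8 of 58 aligned bases, which are in capitals.
RPL10: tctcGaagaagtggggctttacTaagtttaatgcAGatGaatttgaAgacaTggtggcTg
RPL10L: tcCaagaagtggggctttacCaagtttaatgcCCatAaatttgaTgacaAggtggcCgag
The RPL10 probe lies at chrUn:276241153-276241212 on the plus strand, and this RPL10L probe at chr1:175001297-175001356 on the minus strand. The first stood above background on 32 arrays and the second on 10. Neither is the brightest probe of its gene, from which the levels and differences given below come.

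The second pair carries the name of a single gene, RPS9 of the small subunit, but not a single sequence. Capitals mark the 8 of 57 aligned bases at which the brightest RPS9 probe, at chr10:18037489-18037548 on the plus strand, differs from a second RPS9 probe that the files list as unmapped.
RPS9, brightest probe: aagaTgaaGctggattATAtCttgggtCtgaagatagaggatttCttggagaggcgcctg
RPS9, second probe: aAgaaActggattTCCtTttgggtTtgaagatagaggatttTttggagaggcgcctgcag

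Another 3 probes are placed over a piece of the genome longer than their 60 bases, as probes across an exon junction are. RPL26, a large subunit protein that also binds the mRNA of p53, and RPS7, a small subunit protein, were among the genes that went their own way between mares, and a dim probe of RPS12, a small subunit gene, lies between the ends of the RPS12 probe.
RPL26: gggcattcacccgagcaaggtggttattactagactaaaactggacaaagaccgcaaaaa
RPS7: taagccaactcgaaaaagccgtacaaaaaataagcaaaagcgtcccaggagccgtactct
RPS12: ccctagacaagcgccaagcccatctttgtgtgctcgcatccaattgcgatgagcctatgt
They lie at chr11:50053784-50056423 on the minus strand, chr15:85229714-85232752 on the minus strand and chr10:73737925-73739063 on the plus strand.

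The last pair is 2 probes of RPL27A, a large subunit gene, at chr7:65900911-65900970 and chr7:65900931-65900990 on the plus strand. They share 40 bases and each has 20 of its own, which are in capitals beside 10 of the shared ones.
RPL27A, first probe, bases 1 to 30: CCTGAAGCCACGTGGAGGGAgattcattaa
RPL27A, second probe, bases 31 to 60: cagtggcttaTCCTGGTTCCATGAAACAAG

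The comparison of the 2 groups asks whether blood RNA 30 days after weaning differed with the way of weaning. No ribosomal protein gene passed the test. None of the 64 passed an adjusted p of 0.05 in limma, where 0 of 26379 probes did (0%), and none had an unadjusted p under 0.05, which 717 of 26379 probes had (2.72%, and 1.79% with lower levels after progressive weaning). Their unadjusted p ran from 0.265 to 0.981 and their adjusted p from 0.997 to 0.999. The 2 groups of mares overlapped for all 64 genes. No such count over all tested probes is given here, so the overlap cannot be read as a trait of these genes. Apart from RPL3L, RPL10L and RPL22L1, which were dim, the 95% intervals of the other 61 genes lay between -0.31 and 0.29 on the log2 scale, so a shift of a gene by more than these bounds lies outside its interval at this number of mares.

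The signs of the small differences leaned to lower levels after progressive weaning, in 49 of 64 genes against 55.1% of all tested probes, but to higher levels after quantile normalisation and in the deposited series table, where 14 of 64 were lower. With the 75th percentile taken over the probes measured on all arrays 38 of 64 were lower. Their median was -0.033 against -0.013 over all tested probes, and 0.027 after quantile normalisation against 0.00088 over all tested probes. The sign also differed between slides: 5 of 64 genes were lower on slide 1 and 14 on slide 2, against 50 on slide 3 and 59 on slide 4. The median difference was 0.076, 0.058, -0.085 and -0.20 on the 4 slides. With slide 4 left out 19 of 64 were lower, and without array progressive 16, which lies on slide 4, 40 of 64 (median -0.0054). No gene was on the same side of 0 on all 4 slides.

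**Figure D1:**
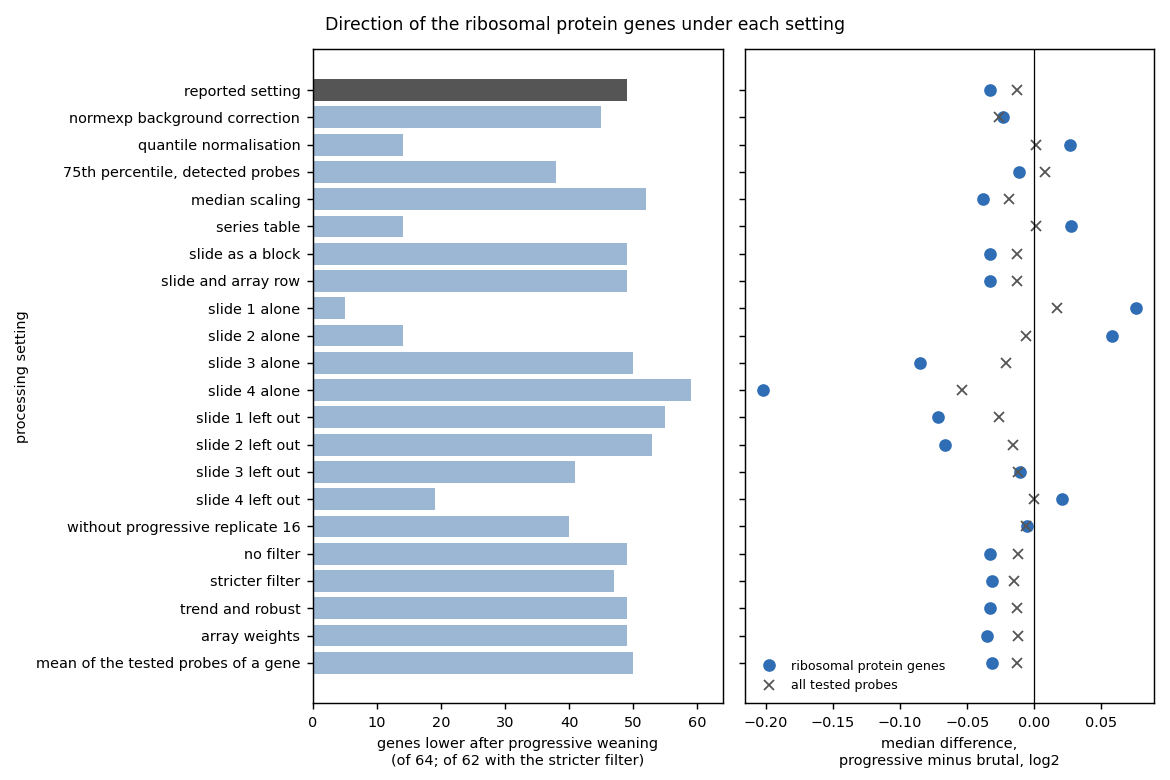
Number of ribosomal protein genes that were lower after progressive weaning (bars, left) and median difference in log2 (right; circles, ribosomal protein genes; crosses, all tested probes) under each processing setting. The count runs from 5 (slide 1 alone) to 59 (slide 4 alone), and is 49 in the reported setting and 14 after quantile normalisation.

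All 3 stalk genes were lower (median -0.085), and 2 of 3 after quantile normalisation (median -0.015). RPLP0 is the base of the stalk, and RPLP1 and RPLP2 form the pairs that reach out from it to the elongation factors. RPLP2 levels ran from 7.84 to 8.72 with a median of 8.18 in brutal mares and from 7.61 to 8.74 with a median of 8.13 in progressive mares. The difference was -0.11 ± 0.096 (SE, unadjusted p = 0.265), and -0.056 after quantile normalisation. RPLP1 levels ran from 8.33 to 9.11 with a median of 8.54 in brutal and from 8.13 to 9.05 with a median of 8.49 in progressive mares, a difference of -0.085 ± 0.088. For RPLP0 the difference was -0.046 ± 0.081. The highest and the lowest mares of both groups interleaved for all 3 genes. On slide 1 none of the 3 was lower.

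Among the 29 genes of the large subunit 20 were lower (median -0.018), but 3 of 29 after quantile normalisation (median 0.054). The 4 with the smallest p among those lower were RPL10 (-0.077 ± 0.086), RPL12, which sits at the base of the stalk (-0.067 ± 0.089), RPL3, near the catalytic centre (-0.062 ± 0.087), and RPL6 (-0.048 ± 0.083). RPL10 levels ran from 8.55 to 9.21 with a median of 8.79 in brutal mares and from 8.37 to 9.28 with a median of 8.68 in progressive mares. The progressive group thus held both the lowest and the highest RPL10 value. Among those higher the smallest p belonged to RPL9 (0.049 ± 0.083), RPL17 (0.043 ± 0.095), RPL29 (0.026 ± 0.077) and RPL35A (0.020 ± 0.094). RPL5 and RPL11, which together bind the p53 regulator MDM2, differed by 0.014 ± 0.079 and -0.021 ± 0.082.

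Of the 27 small subunit genes 22 were lower (median -0.041), and 6 of 27 after quantile normalisation (median 0.024). The smallest p among those lower belonged to RPS21 (-0.078 ± 0.087), RPS12 (-0.071 ± 0.082), RPS26, which lines the path of the leaving mRNA (-0.080 ± 0.098), and RPS13 (-0.073 ± 0.093). Among those higher were RPS7 (0.063 ± 0.10), RPS3A (0.061 ± 0.11) and RPS27A, which is made as a fusion with ubiquitin (0.0099 ± 0.10). RPS26 levels ran from 7.99 to 8.95 with a median of 8.22 in brutal mares and from 7.74 to 8.78 with a median of 8.22 in progressive mares. The medians of the 2 groups were thus alike, and the difference of their means was smaller than its SE. RPS6, which the kinases downstream of mTORC1 phosphorylate, differed by -0.041 ± 0.084, RPS19, mutated in Diamond-Blackfan anaemia, by -0.040 ± 0.081, and RPSA, also known as the laminin receptor, by -0.0020 ± 0.078.

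Of the 5 paralogs, RPL3L, RPL10L and RPL22L1 had the widest intervals of all 64 genes, and RPL7L1 the narrowest. RPL3L, a relative of RPL3 known from muscle, stood above background on 14 brutal and 10 progressive arrays, with levels from -5.67 to -2.82 in brutal and from -5.64 to -2.79 in progressive mares and a difference of -0.24 ± 0.32. RPL10L stood above background on 8 and 9 arrays and differed by -0.10 ± 0.28. Values of these 2 genes on the other arrays lie within the background. RPL22L1, a relative of the RNA-binding protein RPL22, was measured on all arrays and differed by 0.16 ± 0.18. RPL26L1 and RPL7L1 differed by -0.036 ± 0.084 and -0.028 ± 0.063. After quantile normalisation 3 of the 5 paralogs were lower, against 4 of 5 before it.

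**Figure D2:**
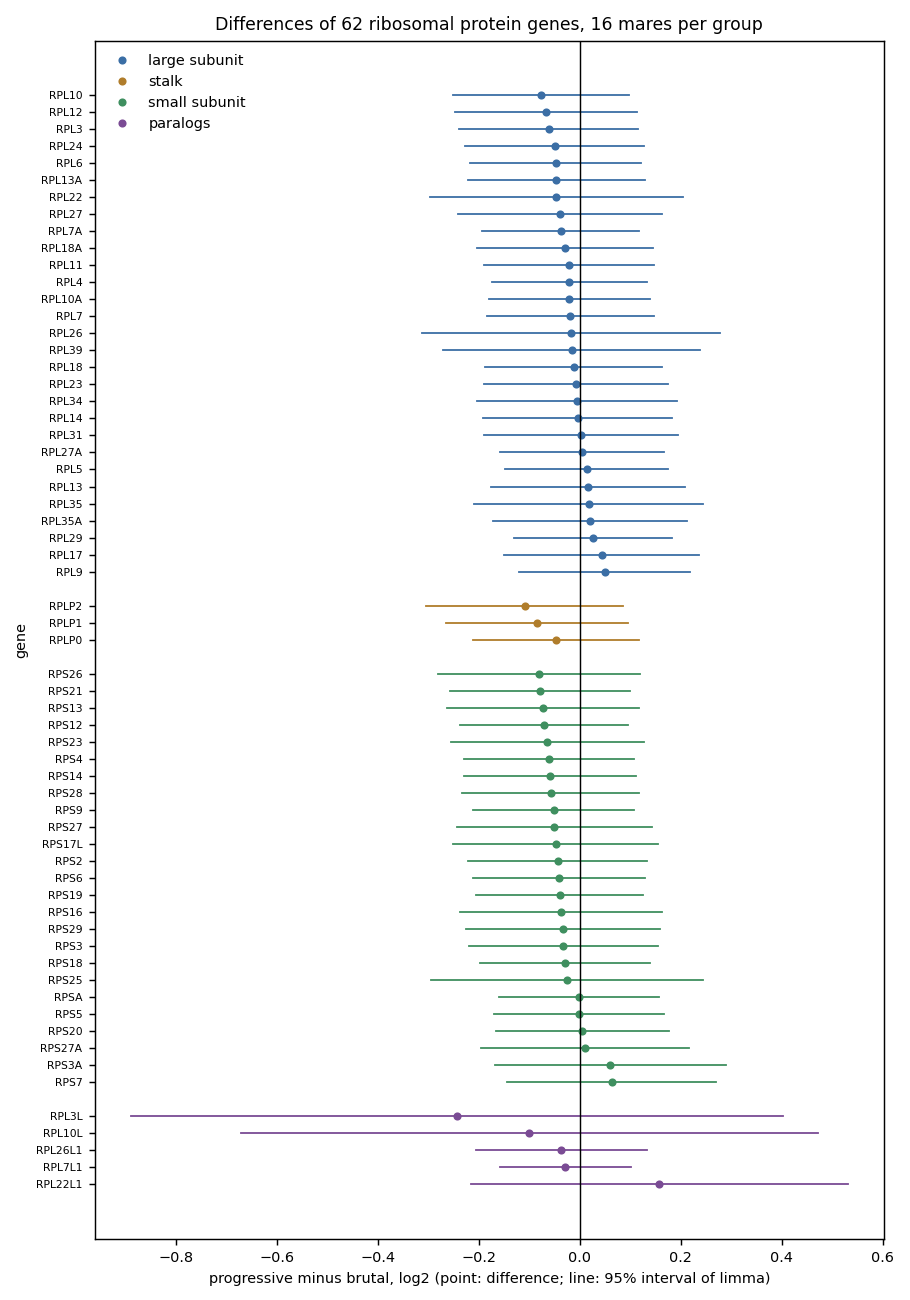
Difference between progressive and brutal weaning of 62 of the 64 genes on the log2 scale, with the 95% interval of limma over 16 mares per group, grouped by large subunit, stalk, small subunit and paralogs. All intervals drawn include 0, and those of RPL3L, RPL10L and RPL22L1 are the widest; the lean to values below 0 (49 of 64) turns to 14 of 64 after quantile normalisation.

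Single mares of a group were spread more widely than the group means differed. The mean of the 62 genes measured on all arrays was 7.10 ± 0.21 (SD, n = 16) in brutal and 7.08 ± 0.24 (n = 16) in progressive mares, and it ran from 6.69 in progressive 16 to 7.62 in progressive 2. Within the brutal group it ran from 6.78 in brutal 10 to 7.51 in brutal 12. Over all 32 mares the range was 0.93, or 1.90-fold, in the reported scaling. It is a range of single arrays, so it cannot be set against a difference of group means. The SD of this mean over the arrays was 0.22, and 0.13 before the percentile was subtracted. Among the 62 genes, the spread over the 32 mares was widest for RPL22L1 (SD 0.53), RPL26 (0.41) and RPS25 (0.38), and narrowest for RPL7L1 (0.16), RPL4 (0.20) and RPL7A (0.21). Progressive 2 was the highest array for 37 of the 62 genes and brutal 12 for 21, and progressive 16 was the lowest for 35. A single component held 73.9% of the variance of the 62 genes over the arrays. The correlation of a gene with the mean of the other 61 over the 32 arrays was above 0.9 for 41 genes and had a median of 0.932. RPL12 followed the others most closely (r = 0.976).

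**Figure D3:**
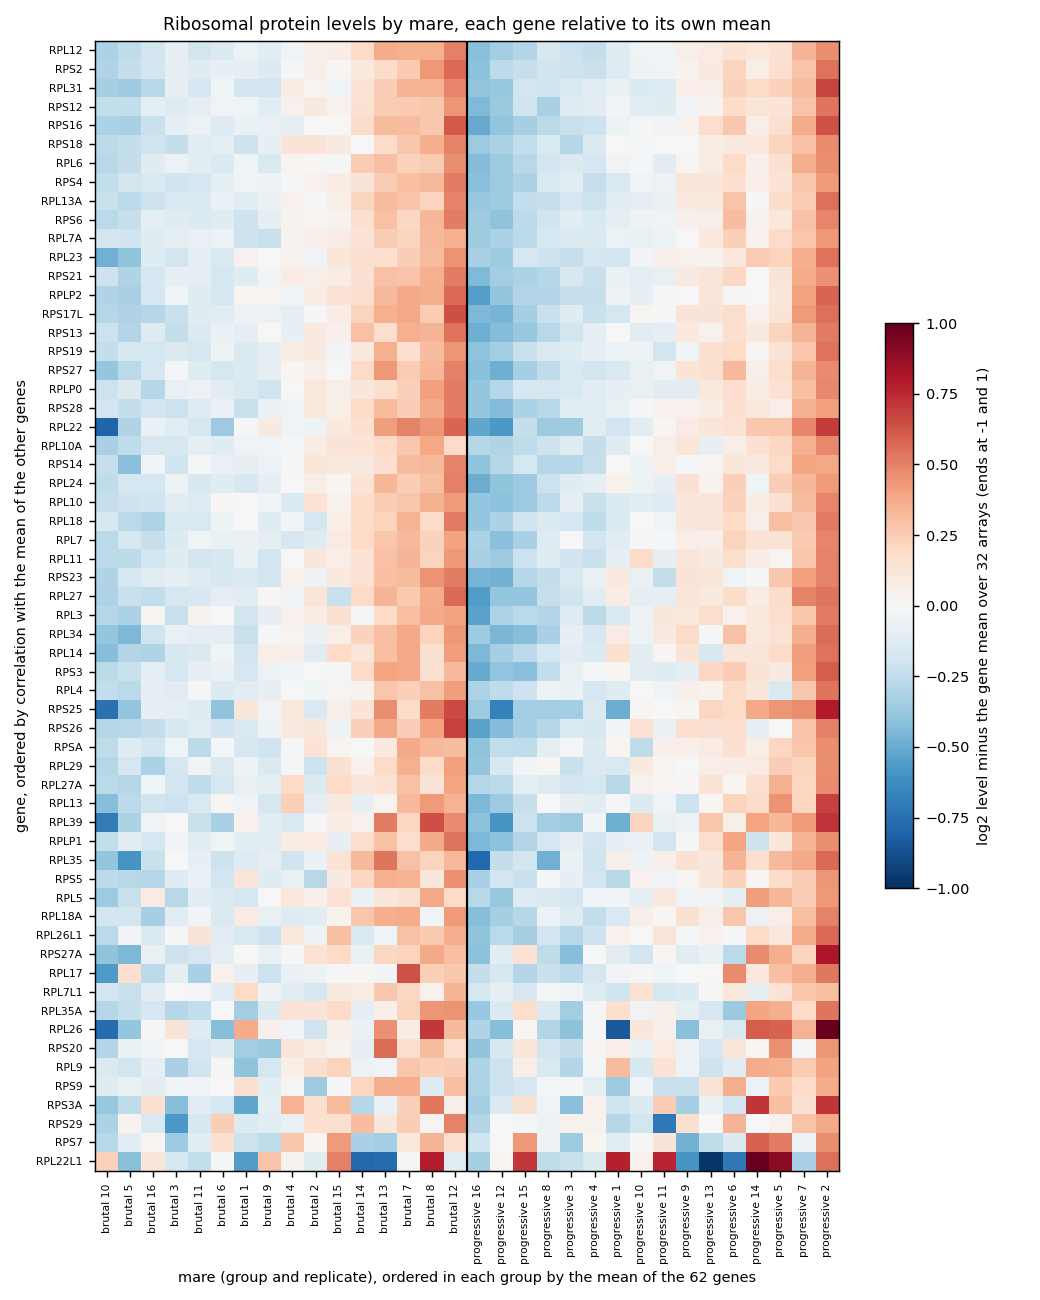
Level of 60 of the 62 genes in each mare relative to the gene's own mean (colour, log2), with brutal mares left and progressive mares right of the line, ordered in each group by the mean of the genes, and genes ordered by their correlation with the others. Most rows change colour together from left to right in both groups, from progressive 16 (6.69) to progressive 2 (7.62), while RPL22L1, RPS7, RPS29 and RPS3A at the bottom do not.

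The shared movement depended on how the arrays were scaled. The mean of the 62 genes correlated with the log2 75th percentile of the array at r = -0.858 (Spearman's rho -0.841) over 32 arrays, at -0.863 within brutal and -0.869 within progressive mares, and between -0.912 and -0.822 on the 4 slides. Without the 2 arrays farthest from the median percentile r was -0.822. The percentile is subtracted from every level, so the 2 measures share it. Before that subtraction the mean of the 62 genes had an SD of 0.13 over arrays, against 0.25 for the percentile itself, and the 2 correlated at r = 0.442. After quantile normalisation the SD of the mean fell from 0.22 to 0.095, its range from 0.93 to 0.39, and the share of the first component from 73.9% to 49.3%. None of the 62 genes then correlated with the others above 0.9, and 6 did above 0.8, with a median of 0.611. The group means were then 16.01 ± 0.081 in brutal and 16.05 ± 0.10 in progressive mares, in log2 intensity.

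With the arrays brought to one distribution, the ribosomal protein genes moved against the neutrophil markers. The mean of the 10 measured markers, among them S100A8 and S100A9, which make up much of the neutrophil cytosol, MMP9, CXCR2 and LTF, correlated with the mean of the 62 genes at r = -0.781 (rho -0.798) after quantile normalisation. The value was -0.761 within brutal and -0.775 within progressive mares, between -0.892 and -0.768 on the 4 slides, and -0.798 without the 2 arrays farthest from the median. In the reported scaling it was -0.201. Of the 12 gene lists set against the 62 genes, 7 were marker lists. Among these, monocyte markers stood at -0.603, T cell markers at 0.444, B cell markers at 0.276, and NK, red cell and platelet markers between -0.148 and 0.055 after quantile normalisation. In the reported scaling T cell markers stood at 0.424, red cell markers at 0.401 and platelet markers at 0.276. Without the 2 arrays farthest from the median, T cell markers stood at 0.292 and red cell markers at 0.227. Red cell markers ran from -0.149 to 0.807 on the 4 slides. Platelet markers stood at -0.086 within brutal and 0.576 within progressive mares. These are descriptions over 32 arrays that share library and scaling, and the part of the cell types in the ribosomal protein levels was not tested.

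**Figure D4:**
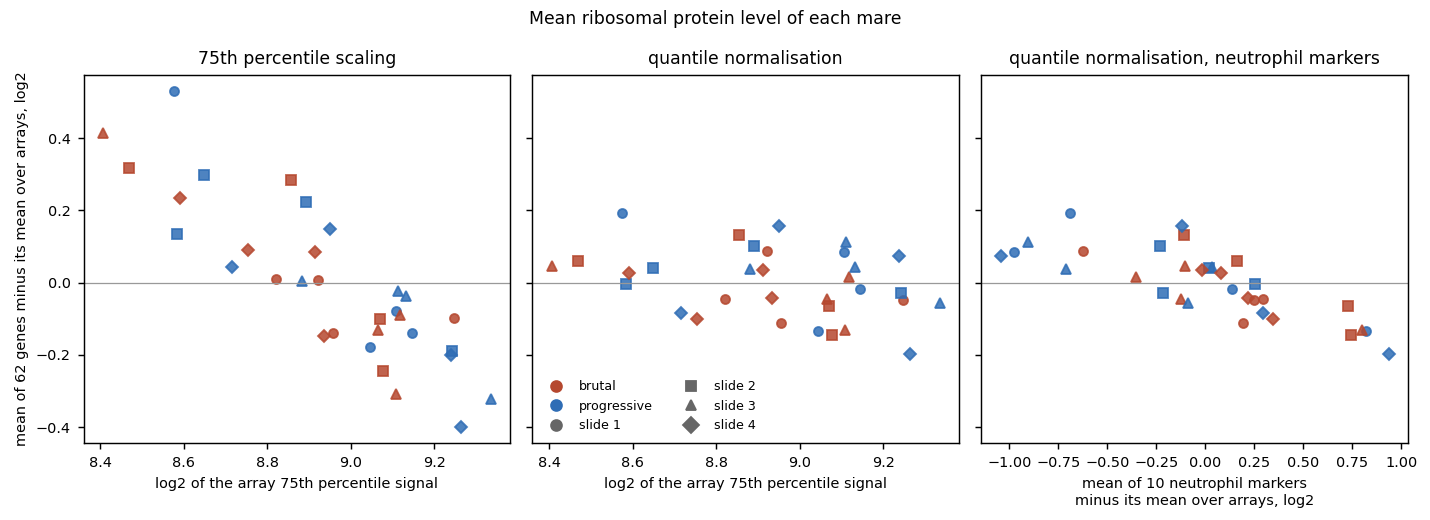
Mean log2 level of 62 ribosomal protein genes in each mare, relative to its mean over arrays, against the log2 75th percentile of the array in the reported scaling (left) and after quantile normalisation (middle), and against the mean of 10 neutrophil markers after quantile normalisation (right), with groups in colour and slides as symbols. The slope on array brightness is steep on the left (r = -0.858), flatter in the middle (r = -0.329), and the fall against the neutrophil markers on the right holds in both groups (r = -0.781 in all).

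The same markers also differed in sign between the groups. All 10 neutrophil markers were lower after progressive weaning (median -0.31), against 55.1% of all tested probes. So were 5 of 5 platelet markers (median -0.40) and 4 of 5 red cell markers (median -0.47). The counts were the same after quantile normalisation, where 49.6% of all tested probes were lower. Red cell markers were lower for 5 of 5 with normexp background correction (63.5% of all tested probes) and 4 of 4 in the series table (49.5%). Markers of one cell type can move together in bulk blood, so the genes of a list are not independent counts. None of these markers passed the test. An unadjusted p under 0.05 in limma was found for 1 of 10, 3 of 5 and 2 of 5, against 2.72% of all tested probes. Slides differed here too: on slide 2 alone 8 of 10 neutrophil markers were lower, but 1 of 5 platelet markers (median 0.19) and 1 of 5 red cell markers (median 0.47). The red cell median was -2.34 on slide 3 alone and -0.12 with slide 3 left out (3 of 5 lower). With slide 2 left out the platelet median was -0.75 and the red cell median -0.86. Neutrophil markers were lower for 7 of 10 on slides 1 and 4 and for 10 of 10 on slide 3, with medians from -0.49 to -0.13 over the 4 slides. With slide 3 left out their median was -0.22. The mean of the neutrophil markers ran from 1.67 to 3.12 with a median of 2.56 in brutal mares and from 1.26 to 3.26 with a median of 2.23 in progressive mares. T cell markers were lower for 4 of 11 genes (median 0.015), and for 2 of 11 after quantile normalisation. The part of these shifts in the differences of the ribosomal protein genes was not tested.

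A few genes left the common movement. Of the 62 genes 12 correlated with the others under 0.8, the lowest being RPL22L1 (r = 0.100), RPS7 (0.394), RPS29 (0.582), RPS3A (0.607), RPS9 (0.673) and RPL9 (0.709). Of the 11 genes whose brightest probe spans a junction 4 were among them, RPL26, RPS7, RPS3A and RPL9, and 8 of the other 51. The RPS3A probe is placed on chr2, while the files describe it by the record of an S3A-like mRNA of the Y chromosome, which mares do not have. RPS7 levels ran from 4.40 to 5.20 in brutal and from 4.30 to 5.36 in progressive mares, and relative to its own mean and to the mean of the other genes RPS7 was lowest in brutal 13 (-0.59) and highest in progressive 15 (0.64).

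Once the mean of the other genes was subtracted, what was left correlated within 2 small sets of genes. The 2 sets were picked after their values were seen. The mean was subtracted in full from every gene, so a gene that moves more or less than the mean keeps part of the common movement. Whether either set moves apart from that movement was not tested. In the first were RPL39, at the exit tunnel of the peptide, RPS25, RPL22 and RPL26, with correlations between 0.503 and 0.855 among them, against a median of 0.025 over all 1891 pairs of genes. Their mean over the 4 genes was lowest in brutal 10 (-0.46) and highest in progressive 2 (0.29) and stood at 0.0016 ± 0.19 in brutal and -0.0016 ± 0.19 in progressive mares. The mean of all 62 genes was also lowest among brutal mares in brutal 10 and highest of all in progressive 2. The 4 genes had SDs between 0.35 and 0.41 over the arrays, against a median of 0.24 over the 62 genes. The 6 probes of RPS25, of which 5 overlap nearly in full, had SDs between 0.36 and 0.38 over the arrays, so its wide spread was read by all of them. In the second were RPL22L1, RPS7, RPL9 and RPL35A, where RPL9 and RPL35A correlated at 0.830 and RPL22L1 with RPS7 at 0.787, and RPS3A with RPS7 at 0.814. After quantile normalisation the correlation of RPL22L1 with the mean of the other genes rose from 0.100 to 0.526 and that of RPS7 from 0.394 to 0.549, while that of RPS29 fell to -0.151.

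Probes of one gene mostly moved together in the reported scaling, but there different genes mostly did so too. Of the 62 genes 41 correlated above 0.9 with the mean of the others. The 233 probes also hold only 219 distinct sequences. The count of agreeing probes thus does not set probes of one gene apart from those of different genes. Of 41 genes with more than 1 probe above background on all arrays 35 had all pairs of probes correlated above 0.9, and no gene had probes that differed in sign with both differences above 0.2. Among the other 6 were RPL27A (lowest r = 0.265), RPS9 (0.688), RPLP0 (0.745), RPSA (0.752) and RPL22 (0.756). For RPS9 the brightest probe differed by -0.052 ± 0.078 and the 5 unmapped probes, which include the second sequence shown above, by -0.070 to -0.050. Their SDs over arrays rose to 0.46 where the brightest probe had 0.21.

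Among the 41 genes with more than 1 probe above background on all arrays, the 2 probes of RPL27A agreed least. The first probe ran from 7.10 to 7.85 over all 32 mares. The second, which shares 40 of its 60 bases, fell into 2 levels: it read 2.85 to 3.61 in 9 mares, 4 brutal and 5 progressive, and 5.01 to 6.72 in the other 23. The gap of 1.39 took 36.0% of its range, where the widest gap of any other of the 224 probes measured on all arrays took 23.4%. In the mares with low values of the second probe the first ran from 7.10 to 7.73, and in the others from 7.10 to 7.85, so the first probe did not show the 2 levels. The SD of the second probe over all mares was 1.17 against 0.22 for the first. The group difference was -0.23 by the second probe and 0.0044 by the first. The bases that only the second probe holds are the capitals of its sequence above.

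**Figure D5:**
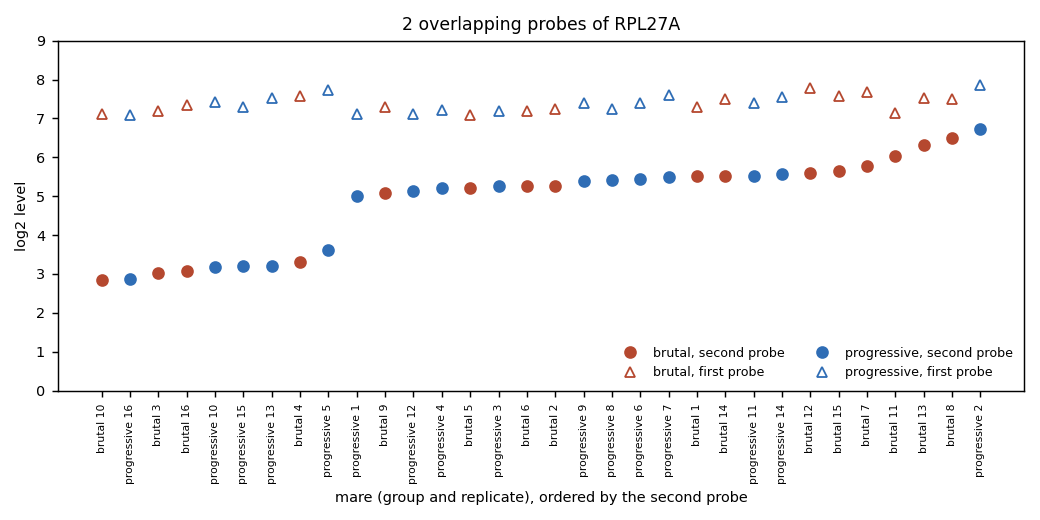
Log2 level of the first (open triangles) and second (filled circles) RPL27A probe in each of 32 mares, ordered by the second probe, with brutal mares in red and progressive mares in blue. The second probe lies between 2.85 and 3.61 in 9 mares of both groups and between 5.01 and 6.72 in the others, while the first stays between 7.10 and 7.85.

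Only 1 of 228 tested probes of the 64 genes had an unadjusted p under 0.05 (2.72% of all probes had). It was a dim probe of RPS12 at chr10:73738223-73738282, above background on 14 of 32 arrays, with a difference of 0.36 (unadjusted p = 0.048, adjusted p = 0.997 in limma). Its place lies between the ends of the junction probe of RPS12 shown above, which read -0.047 (p = 0.567), and the brightest RPS12 probe read -0.071.

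The list of ribosomal proteins with other names had 3 of 5 genes measured. FAU, a ubiquitin-like fusion that gives a small subunit protein, and GNB2L1, the scaffold now called RACK1, differed by -0.030 ± 0.075 and -0.043 ± 0.084. All 3 measured genes were lower, and all 3 were higher after quantile normalisation (median 0.026). Their mean correlated with that of the 62 genes at 0.945, and at 0.729 after quantile normalisation. Another 9 ribosomal protein genes were named only through RefSeq by accession: RPL19, RPL28, RPL32, RPL36A, RPL37, RPL37A, RPS15A, RPS24 and RPS27L. Their differences ran from -0.11 (RPL28) to 0.14 (RPL37A) with a median of -0.0076, and with them 55 of 73 genes were lower.

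The next list holds translation factors whose mRNAs carry the same pyrimidine tract. The 13 measured of 17 correlated with the 62 genes as a mean at 0.967 over 32 arrays, and at 0.901 after quantile normalisation. Taken singly in the reported scaling, genes of this list stood between 0.151 and 0.945, with PABPC1 at 0.380. None passed the test; 7 of 13 were lower, and 3 of 13 after quantile normalisation. The smallest p belonged to PABPC1, the poly(A) binding protein (-0.082 ± 0.071), and EIF3L, a subunit of an initiation factor (-0.081 ± 0.076). Ribosome assembly factors, 29 of 31 measured, followed at 0.734 and 0.788, with 11 of 29 and 7 of 29 lower. There the smallest p belonged to BYSL (-0.28 ± 0.14), above background on 24 arrays, and NOP56, a core protein of the particles that methylate ribosomal RNA (0.12 ± 0.070). RNA polymerase I, which makes the ribosomal RNA, stood at 0.273 and 0.586 over 7 of 11 genes, of which 3 were lower. UBTF, its upstream factor (-0.24 ± 0.13), and TAF1B (0.12 ± 0.080) had the smallest p. The genes of mTORC1 and its targets, 10 of 13 measured, stood at -0.161 and -0.018 with 4 of 10 lower (6 of 10 with normexp background correction), and the smallest p belonged to MTOR (0.14 ± 0.082) and the repressor EIF4EBP1 (-0.26 ± 0.18). No gene of these 5 lists passed the test or had an unadjusted p under 0.05.

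Outside the 64 genes, the 10 closest to the mean of the 62 included GNB2L1 (r = 0.962), RPL19 (0.959), COPS9 (0.956), FLT3LG (0.955), FAU (0.953), RPL37 (0.952), SSNA1 (0.950), COX6A1 (0.950) and MRPL21 (0.948), over 32 arrays in the reported scaling. Of the 9105 genes outside the 64, 21.5% correlated above 0.5 and 6.62% under -0.5. After quantile normalisation the genes named here stood between 0.129 (FAU) and 0.854 (MRPL21). FLT3LG, the ligand of a receptor of blood progenitors, has its probe 8373 bases from that of RPL13A on chrUn. At the other end, and picked after the values were seen, stood ROCK1 (-0.933), MED13L (-0.870) and YTHDC1 (-0.862), which stood at -0.591, -0.523 and -0.611 after quantile normalisation.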

How the data were processed

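Whole blood RNA of 32 mares was measured on single-colour Agilent arrays, 1 per mare. The deposited intensity values per spot were extracted with Agilent Feature Extraction 10.10.1.1, per the submitters' processing notes and the file headers, and are background-subtracted. The deposited series table holds log2 values of the same arrays, with the same median (8.40) on every array. Its normalisation: not given in the sources used here. It served as an alternative only.

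Control spots and outlier spots were left out. Each log2 signal was centred on the 75th percentile of its array, and spots of the same probe were averaged. Testing needed signal well above background on 8 or more of 16 arrays of a group, which left 26379 probes. Groups came from the labels. Differences came from limma 3.58.1 (R 4.3.3; group as the only term in lmFit with eBayes, two-sided, Benjamini-Hochberg over all tested probes, threshold 0.05), tested on simulated data. Python 3.11.15 gave correlations, which are Pearson's where not named. The number of arrays limits the precision. The members and lists were chosen with earlier results of these data known. Named members were the 4 with the smallest p per direction and subunit, stalk genes, paralogs, RPSA, the 3 with the widest and narrowest spread, and discordant genes. Named others were the 2 with the smallest p of each list and the 10 closest followers. A few genes under this rule are not reported here. Any gene named beyond that was chosen after its values were seen. Names came from the files for 26124 probes and from RefSeq for 2210, and 15653 had none. Protein and promoter sequences were not used here. Alternatives covered background correction, scaling, slides, filters, weights and probe choice.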

Additional observations from a re-analysis of the deposited data

How the results depend on the processing

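No ribosomal protein gene passed the threshold under any alternative that was run. The number lower after progressive weaning, 49 of 64, became 14 with quantile normalisation, 14 with the series table, 5 on slide 1 alone, 14 on slide 2 alone and 19 with slide 4 left out. In the others it ran from 38 (75th percentile over probes measured on all arrays) to 59 of 64, and it was 40 without progressive replicate 16 and 55 of 73 with genes named through RefSeq added, an alternative chosen after seeing the data. The share of the first component, 73.9%, was 47.8% in the series table. Over all tested probes 1 passed the threshold on slide 4 alone and 0 in the reported setting. The cause was not tested. The median difference, -0.033 in the reported setting, ran from -0.20 on slide 4 alone to 0.076 on slide 1 alone, so its sign depended on the setting. Slide as a block cannot change a difference here, since each slide holds 4 mares of each group. Block, filter, weight and probe choices give no value for the component. No paired analysis was possible because the labels tie no mare to a mare of the other group. The number of mares sets the widths of the intervals, and dim probes (RPL3L, RPL10L) are limited by background.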
